A study of Homo sapiens with 6 samples.

Results

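The data described here are the eIF4B cross-links around the stop codons of non-histone mRNAs. On each MANE Select transcript, the single reference transcript chosen for a protein-coding gene, the region ran from 50 nt before the first base to 50 nt after the last base of the stop codon, 103 nt in all, and was followed through the spliced mRNA on the coding strand. Of the 19061 MANE Select transcripts in GENCODE release 44, 95 belong to histone genes by name and were left out, which leaves 18966 regions. A position is a nucleotide with at least 1 cDNA count. In DoHH-2 34284 of 1179243 positions lay in the regions, with 59995 counts from 6649 genes. In GM01953 2502 of 78474 positions did, with 5034 counts from 1352 genes. The 3′ UTR is shorter than 50 nt in 582 of the 18966 mRNAs, so that the region ends early there, and an exon junction falls inside the region in 2544.

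DoHH-2 was derived from a diffuse large B-cell lymphoma (DLBCL), and GM01953 is a B-cell line from a donor free of that disease, so the lines are not isogenic. Neither line received a treatment: the cells were cross-linked with UVC, the RNA was trimmed with RNase I, and RNA bound to eIF4B was immunoprecipitated and sequenced by iCLIP, in which reverse transcription stops beside the cross-linked nucleotide. The labels name 4 replicates for DoHH-2 and 2 for GM01953, but each line has a single table of the pooled replicates. Every value below therefore comes from 1 pooled library per line, with no SD and no test between the lines, and the 95% intervals cover counting error only.

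A stop codon, UAA, UAG or UGA, is read in the ribosomal A site by the release factor eRF1, which works with the GTPase eRF3 to free the finished protein. The ribosome pauses there and is then recycled, and the CDS upstream of the codon is swept by ribosomes while the 3′ UTR downstream is not. eIF4B is an RNA-binding cofactor of the helicase eIF4A and is best known for its part in translation initiation at the 5′ end of the mRNA.

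Sequences at single positions are given first, since the profile turns on them. The following 30-nt windows (GENCODE release 44 transcripts, GRCh38, written with T for U) show the highest position of a region, in capitals. For the first 4 genes the same nucleotide was highest in both cell lines. RPL5 and RPS24 encode ribosomal proteins, UBL5 encodes a ubiquitin-like protein and ANP32A an acidic nuclear phosphoprotein.
RPL5: taaacccagcaattTtctatgattttttca
RPS24: ggtgctgcaatgatGttagctgtggccact
UBL5: cttcctgccccgctTtcctctcccatcctc
ANP32A: tgtgatttgactgtTtttacccatatcccc
HMGB2: tgtggaatgtgtgtGtgtgctcaggcaatt
PTMA: aggaaaagttaaacTaaaaaaaaaaaggcc
RPL19: aagagaccaagaaaTaaaacctcccacttt
The windows lie at chr1:92841863-92841892 (RPL5, plus strand), chr10:78040628-78040657 (RPS24, plus), chr19:9830023-9830052 (UBL5, plus), chr15:68780021-68780050 (ANP32A, minus), chr4:173332028-173332057 (HMGB2, minus, highest in DoHH-2), chr2:231712862-231712891 (PTMA, plus, highest in GM01953) and chr17:39204632-39204661 (RPL19, plus, highest in DoHH-2). The first 6 positions are in the 3′ UTR part of the last exon. The RPL19 position is the first base of its TAA. Of the 23 genes named by the rules given with the processing, 22 had a count in the region in DoHH-2, and the base after their highest position was U in 13 and A in 8. In GM01953 19 had a count, and that base was U in 10 and A in 7. It was G in 0 of either.

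The depth differed between the lines. The DoHH-2 table sums to 2033156 cDNA counts, with 1083094 on non-histone MANE Select mRNAs, and the GM01953 table to 167197, with 86598 on these mRNAs. All 6 B-cell markers, such as CD74 and PAX5, had counts on their mRNAs in both lines, and all 4 T-cell and all 4 myeloid markers had 0. Both plasma cell markers, SDC1 and PRDM1, had counts too, 94 together in DoHH-2 and 5 in GM01953. Of the region counts, 92.8% in DoHH-2 and 93.3% in GM01953 were at positions whose following 31 nt occur once in the genome.

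The stop codon region took a larger share of the counts than of the length. It makes up 2.74% of the mRNA sequence and took 5.54% of the mRNA counts in DoHH-2 (Wilson 95% interval 5.50% to 5.58%) and 5.81% in GM01953 (5.66% to 5.97%). The 2.74% is taken over all 18966 mRNAs, whatever their counts. Against the density over the rest of the same mRNAs, summed gene by gene, the region had 1.29 times as much in DoHH-2 (1.28 to 1.30) and 1.26 times in GM01953 (1.23 to 1.30), and the ratio of the median tested gene was 0.871 in DoHH-2. The difference in the share, DoHH-2 minus GM01953, was -0.274 percentage points (-0.437 to -0.114). It was lost without the 10 genes with the highest region counts of each line (0.00438 points, -0.154 to 0.159) and without ribosomal protein genes (-0.0636, -0.218 to 0.0874), and it turned to 0.876 points (0.660 to 1.09) when only positions with a deposited false discovery rate (FDR) below 0.05, called binding sites here, were used. The region around the start codon of the same mRNAs was bound more densely: the density at the stop codon was 0.577 of that at the start codon in DoHH-2 (0.571 to 0.583) and 0.443 in GM01953 (0.428 to 0.458).

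Density rose from the end of the CDS into the 3′ UTR. On the 17052 mRNAs with 100 nt to spare on each side, the region had 1.54 times the density of the 100 nt of CDS before it in DoHH-2 (1.51 to 1.56) and 1.69 times in GM01953 (1.60 to 1.78). Against the 100 nt of 3′ UTR after it, the ratio was 0.836 in DoHH-2 (0.825 to 0.846) and 1.06 in GM01953 (1.01 to 1.11). The GM01953 ratio fell to 0.989 (0.943 to 1.04) without its 10 highest genes and to 0.964 (0.919 to 1.01) without ribosomal protein genes, while that of DoHH-2 was 0.836 and 0.777 under the same settings. Within the region, the 50 nt after the stop codon had 1.34 times the density of the 50 nt before it in DoHH-2 (1.32 to 1.36) and 1.36 times in GM01953 (1.28 to 1.44). In 4.88% of the DoHH-2 counts and 6.03% of the GM01953 counts on the 3′ UTR side, the position lies in the CDS of another annotated transcript.

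Over 300 nt to each side, on 14866 mRNAs, the rise was gradual and began inside the CDS. In DoHH-2 the density per nt, per 100000 mRNA counts, was lowest at 23.4 in the bin from position -150 to -126, counted from the first base of the stop codon. It was 27.5 from -75 to -51, 32.2 from -50 to -26, 36.9 in the last 25 nt of CDS, 42.7 in the first 25 nt of 3′ UTR and 49.6 from 78 to 102 nt, and it was still 39.7 at the far end. In GM01953 it was lowest at 18.5 in the same bin, reached 40.4 in the last 25 nt of CDS and 40.1 in the first 25 nt of 3′ UTR, was highest at 44.4 from 28 to 52 nt, and was 31.1 from 128 to 152 nt. The intervals of the lines overlapped in each bin from 50 nt before the stop codon to 77 nt after its first base. Beyond 77 nt DoHH-2 was higher in every bin up to 302 nt, with no overlap of the intervals.

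**Figure D1:**
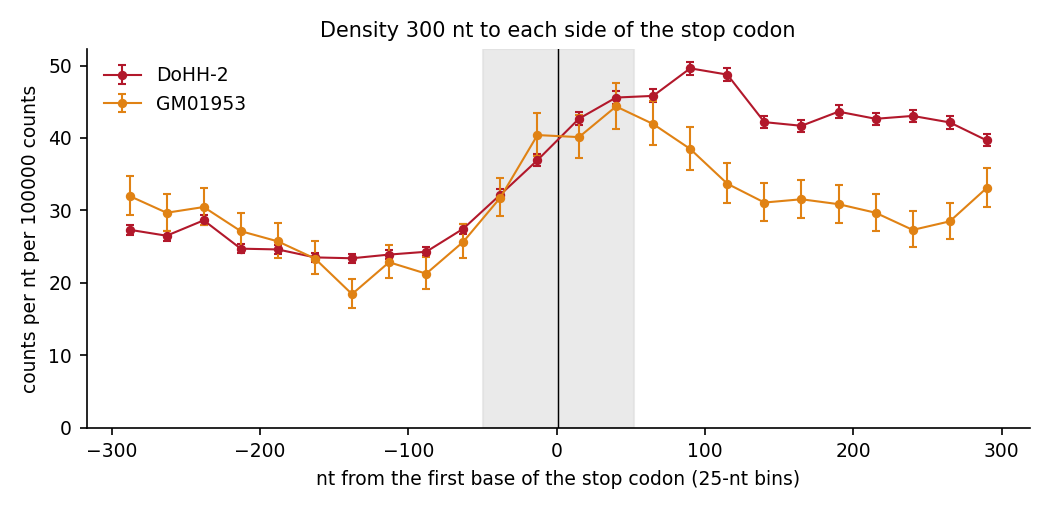
Density of eIF4B cross-links in 25-nt bins (counts per nt per 100000 counts on the 14866 mRNAs, with exact Poisson 95% intervals) against distance from the first base of the stop codon, which itself is left out. The grey band is the 50 nt to each side; in both lines the density is lowest in the bin from -150 to -126, and it stays high after the codon in DoHH-2 (39.7 at the far end) while it falls to 31.1 by 128 to 152 nt in GM01953.

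At single-nucleotide scale the stop codon carried a narrow maximum. Positions are counted from 0 at the first base of the stop codon, so that -1 is the last base of the CDS. In DoHH-2 position -1 had 1040 counts from 543 genes, 1.79 times the mean of the 103 nt (1.68 to 1.90), and position 0 had 969 counts, 1.66 times the mean. The next highest, position 41, had 789. In GM01953 position -1 was again highest, with 115 counts from 44 genes, 2.35 times the mean (1.94 to 2.82), and position 0 ranked below 3 positions of the 3′ UTR side (27, 22 and 47) with 85 counts, 1.74 times the mean. The last base of the stop codon was among the lowest, at 0.567 of the mean in DoHH-2 (330 counts) and 0.532 of it in GM01953 (26 counts).

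Many genes made up this maximum in DoHH-2. The highest contributor at position -1 was ACTB, which encodes cytoplasmic actin, with 31 counts, and without it the value was 1.73 times the mean. At position 0 it was RPL19 with 53 counts, and without it the value was 1.57 times the mean. In GM01953 fewer genes contributed. SEPTIN9, a septin gene named after its values were seen, gave 16 counts at position -1, and without it the value was 2.03 times the mean. In GM01953 position -1 was highest on mRNAs of the plus strand of the genome, with 80 counts, but not on those of the minus strand, where it had 35 and position 47 had 58, of which ANP32A gave 25.

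**Figure D2:**
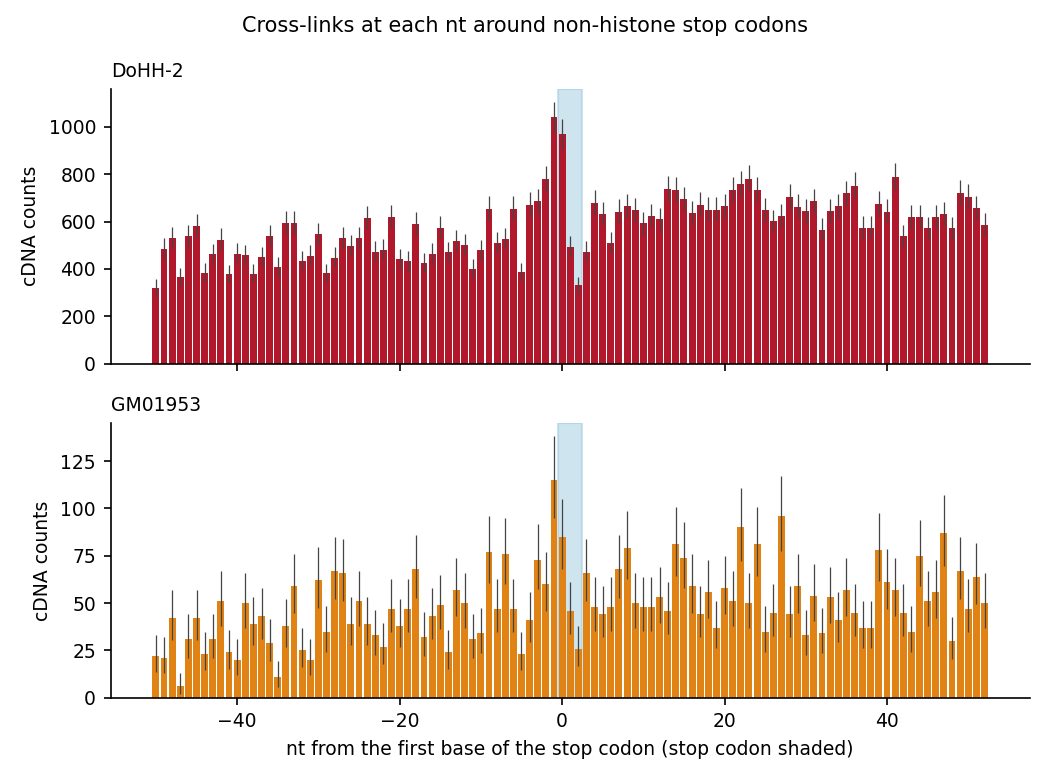
cDNA counts at each nt around 18966 non-histone stop codons in DoHH-2 (top) and GM01953 (bottom), with exact Poisson 95% intervals as lines and the stop codon shaded. The highest bars are at positions -1 (1040) and 0 (969) in DoHH-2 and at -1 (115) in GM01953, and the bars to the right of the codon are higher than most of those to its left.

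The base after a cross-link was rarely G. In DoHH-2 45.2% of the region counts were followed by U, which makes up 25.5% of the bases there, a ratio of 1.77, and in GM01953 43.5% were, against 24.2%, a ratio of 1.80. The ratio for G was 0.358 in DoHH-2 and 0.257 in GM01953. Since every stop codon starts with U, position -1 is always followed by U, and position 0 is followed by A or G. Position 0 is itself always U. The base at the cross-link was U more often than the bases there, with a ratio of 1.72 in DoHH-2 and 1.82 in GM01953. Whether this accounts for the high count at position 0 was not tested. U is also more frequent in the 3′ UTR side than in the CDS side, at 26.5% against 21.2% of following bases in the DoHH-2 mRNAs. Places with the same following base were therefore compared, on mRNAs that had at least 1 count in a region of full length. The base at the position and the bases before it were not matched.

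With U as the following base, DoHH-2 had 12.4 counts per 100 places on the CDS side (12.2 to 12.7), 14.8 at position -1 (13.9 to 15.8) and 19.0 on the 3′ UTR side (18.7 to 19.3). Position -1 thus had 1.19 times the rate of the CDS side (1.12 to 1.28) and 0.781 times that of the 3′ UTR side (0.732 to 0.834). In GM01953 the rates were 4.95, 8.49 and 7.25, so that position -1 had 1.72 times the rate of the CDS side (1.39 to 2.10), and its ratio to the 3′ UTR side was 1.17 with an interval that includes 1 (0.957 to 1.42). The 3′ UTR side had the higher rate whichever base followed in DoHH-2, by 1.53 times for U and by 1.13 to 1.17 times for A, C and G. In GM01953 it was 1.47 times for U, 1.25 for A and 1.35 for G, and the interval for C included 1 (0.994 to 1.37).

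The letters of the stop codon were also looked for elsewhere in the regions, on the coding strand only. Of the 18384 regions of full length, 73.6% hold at least 1 UAA, UAG or UGA in another reading frame of the CDS side and 77.0% hold at least 1 in the 3′ UTR side. Just before the stop codon itself DoHH-2 had 14.8 counts per 100, against 9.67 before the same words out of frame in the CDS and 15.3 before them in the 3′ UTR. The ratio was 1.53 to the CDS words (1.40 to 1.68) and 0.969 to the 3′ UTR words (0.897 to 1.05). In GM01953 the rates were 8.49, 2.86 and 6.28, with ratios of 2.97 (2.14 to 4.15) and 1.35 (1.05 to 1.73). By word, the DoHH-2 rate before the stop codon was 23.4 for UAA, 14.1 for UAG and 9.67 for UGA. Before the 3′ UTR words it was 20.1 for both UAA and UAG and 9.08 for UGA. In GM01953 UGA had 6.53 before the stop codon against 1.43 before the out-of-frame CDS words and 2.87 before the 3′ UTR words.

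**Figure D3:**
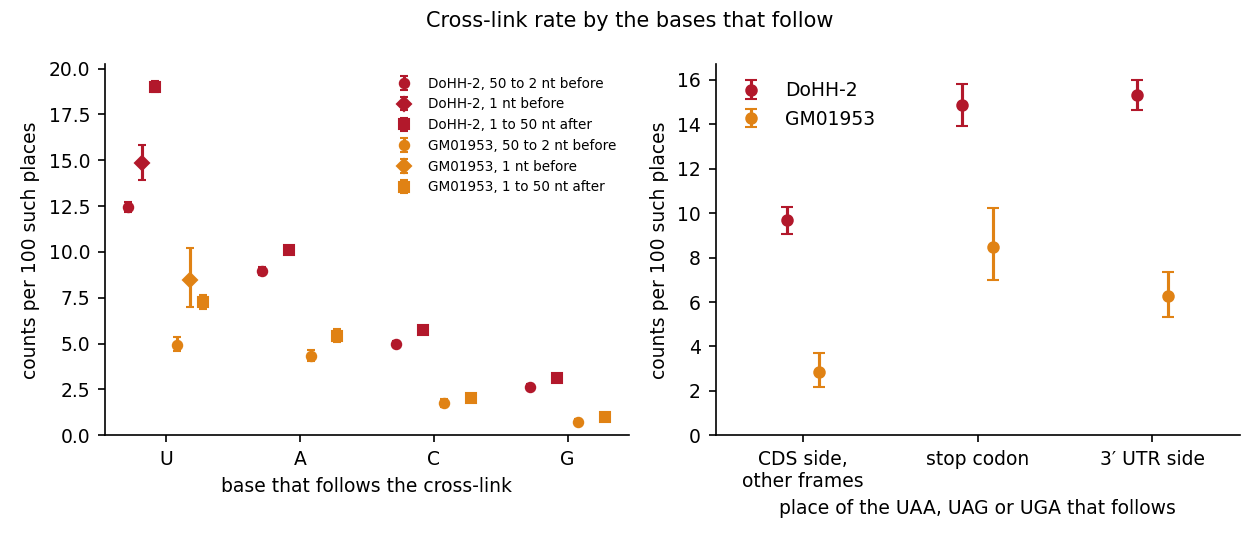
Counts per 100 places, with exact Poisson 95% intervals, by the base that follows the cross-link (left) and before any UAA, UAG or UGA by its place (right). Rates were highest before U and lowest before G; before the words in DoHH-2 they were 9.67 out of frame in the CDS, 14.8 for stop codons and 15.3 in 3′ UTRs, and 2.86, 8.49 and 6.28 in GM01953.

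Counts on the CDS side were unequal between the bases of the codons. From the codon that ends at position -4 back to position -48, codon base 1 took 38.1% of the DoHH-2 counts, base 2 took 28.4% and base 3 took 33.5%. In GM01953 the shares were 42.0%, 23.7% and 34.3%. The following base differs between codon places, since U follows base 1 in 24.2% of codons and base 3 in 16.5%. With U following, the DoHH-2 rates per 100 were 12.8, 10.5 and 13.6 for bases 1, 2 and 3, and with A following they were 9.46, 6.75 and 9.76. In GM01953 they were 4.69, 3.54 and 6.68 before U and 5.13, 2.67 and 4.66 before A. Base 2 thus had the lowest rate before U and before A, but this did not extend to C: before C base 2 had 5.33 in DoHH-2, against 5.31 for base 1 and 4.18 for base 3, and in GM01953 base 3 was lowest (2.25, 1.75 and 1.22). Before G the rates were 2.34, 2.24 and 3.22 in DoHH-2 and 0.850, 0.632 and 0.777 in GM01953. No single order of the codon bases held for every following base.

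Among the 3 stop codons, mRNAs ending in UAA had the densest regions by summed counts. Relative to the rest of their own mRNAs the density was 1.52 times in DoHH-2 (1.51 to 1.54) and 1.39 times in GM01953 (1.33 to 1.46) for the 5371 mRNAs with UAA. It was 1.16 and 1.15 times for the 4261 with UAG, and 1.16 and 1.21 times for the 9334 with UGA. Positions -1 and 0 held 4.66% of the region counts of UAA mRNAs, 3.45% of UAG and 1.92% of UGA mRNAs in DoHH-2, and 5.17%, 5.39% and 2.36% in GM01953. By the base after the stop codon, which is part of the context that release factors read, the density was 1.44 times for A, 1.39 for U, 1.29 for C and 1.09 for G in DoHH-2. The GM01953 values were 1.40, 1.25, 1.28 and 1.15, and G was lowest in both lines. In GM01953 the interval for G (1.09 to 1.203) overlapped those for U (1.16 to 1.34) and C (1.200 to 1.37). By 3′ UTR length, mRNAs with at least 50 but under 200 nt had 1.46 times in DoHH-2 and 1.503 times in GM01953, those from 200 nt to under 1000 nt had 1.03 and 1.01 times, and those with 1000 nt or more 1.60 and 1.55 times.

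Gene by gene, most regions were not denser than the rest of the mRNA. Of the 7580 DoHH-2 genes with more than 20 mRNA counts, 1616 (21.3%) had at least 2 times the density in the region, 920 of them with an exact interval above 1, and 1661 had 0 counts there. The median ratio over these genes was 0.871. In GM01953 182 of 923 (19.7%) did, 112 of them with an interval above 1, and 508 had 0 counts in the region. The rule can be met by few counts, and calls in the gene lists below do not use the interval. LTN1, chosen after its values were seen, was called in DoHH-2 with 1 of 37 counts (ratio 2.04, 0.0503 to 12.1). Of 890 genes tested in both lines, 90 were called in both, which is 46.6% of the 193 called in DoHH-2 and 51.1% of the 176 called in GM01953. Single-count positions made up 75.3% of the positions in DoHH-2 and 58.6% in GM01953. The 10 highest genes held 8.35% of the region counts in DoHH-2 and 13.4% in GM01953.

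Cytosolic ribosomal proteins, the protein part of the ribosome, had the largest share of region counts among the 14 gene lists. Of 74 tested genes of the list, 33 were called in DoHH-2 (44.6%, against 21.3% of all genes), and of 50 in GM01953 30 were (60.0%, against 19.7%). Their regions held 15.1% of all region counts in DoHH-2 and 18.2% in GM01953. The summed density was 2.10 times that of the rest of their mRNAs in DoHH-2 (2.06 to 2.15) and 2.65 times in GM01953 (2.48 to 2.83), and the median ratios per gene were 1.64 and 2.83. These mRNAs have short 3′ UTRs, with a median of 112 nt against 1071 nt for other genes. Among mRNAs with a 3′ UTR under 200 nt, 12 of 41 ribosomal protein genes and 135 of 573 other genes were called in DoHH-2 (29.3% and 23.6%), and the summed ratios were 1.73 and 1.25. In GM01953 13 of 27 and 20 of 67 were (48.1% and 29.9%), with ratios of 2.16 and 1.15. The list was not uniform: RPL3 had 3 of 1073 mRNA counts in the region in DoHH-2 and RPL41 had 0 of 244 (both genes were chosen after their values were seen).

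RPL5, which encodes a protein of the large subunit that carries 5S rRNA, had the highest region count in DoHH-2. It had 765 of 2446 mRNA counts in the region, 4.09 times the density of the rest of its mRNA (3.75 to 4.45), with 90 at position 14. In GM01953 it had 77 of 194, 5.91 times (4.37 to 7.95), with 17 at the same position, chr1:92841877. The DoHH-2 counts lay mainly after the stop codon, 593 against 149 before it.

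RPL19, also of the large subunit, had 660 of 1041 counts in the region in DoHH-2 (63.4%) and 52 of 78 in GM01953 (66.7%). Its highest position was the first base of the stop codon in DoHH-2, with 53 counts, and position 20 in GM01953, with 9. Only 44.8% and 11.5% of these counts were at positions with a unique 31-nt word, and how many came from copies of this sequence elsewhere in the genome was not tested.

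RPS24, of the small subunit, had 528 counts in DoHH-2 and 53 in GM01953, nearly all in the 3′ UTR (521 and 53). Position 49 held 175 and 16 of them, the highest single position of any region in DoHH-2. FAU, which encodes a fusion of a ubiquitin-like protein and the ribosomal protein eS30, had 408 of 1036 counts in DoHH-2 and 35 of 83 in GM01953, ratios of 2.54 and 2.85. RPS29 had 276 of 509 and 23 of 32, and RPL30 had 265 of 907 and 43 of 84.

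Beyond the ribosome, the chromatin protein genes of the HMG list had the highest summed ratio in DoHH-2, 3.30 (3.06 to 3.55), with 3 of 7 genes called (42.9%, against 21.3% of all genes). HMGB2 and HMGB1 held most of the list's 700 counts. HMGB2, which encodes a DNA-bending protein, had 516 of 2227 counts, 460 of them after the stop codon and 58 at position 39. HMGB1, a related protein, had 137 of 1480, a ratio of 5.30. Other members were low: HMGA1 had a ratio of 0.467, HMGN2 had 1 of 206 counts and HMGN1 had 0 of 119 (these 3 were chosen after their values were seen). In GM01953 the list's ratio was 1.20 (0.768 to 1.78), and 1 of 4 tested genes was called (25%, against 19.7% of all genes). HMGB2 had 16 of 143 counts there, 4 of them after the stop codon. Translation elongation genes had 1.88 in DoHH-2 with 2 of 7 called (28.6%, against 21.3% of all genes). That ratio was carried by TPT1 (273 of 1494, ratio 9.65), which encodes the translationally controlled tumour protein. The ratio of the elongation list was 0.922 (0.563 to 1.42) in GM01953, with 1 of 3 called (33.3%, against 19.7%).

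The opposite was seen for MHC and antigen presentation genes, which show peptides to T cells. None of 16 tested genes was called in DoHH-2, against 21.3% of all genes, and 1 of 9 in GM01953 (11.1%, against 19.7%). The summed ratios were 0.458 (0.378 to 0.549) and 0.584 (0.438 to 0.761). CD74, the invariant chain, had 42 of 945 counts in the region in DoHH-2, a ratio of 0.700 (0.501 to 0.954). It was an exception in GM01953, with 32 of 333 counts, a ratio of 1.60 (1.07 to 2.31), and it held 32 of the 54 region counts of the list there. The eIF4F list, which holds eIF4B and its partners at the cap, had a low summed ratio in DoHH-2, 0.607 (0.499 to 0.731). Its genes taken singly were not low there: 3 of 12 were called (25%, against 21.3% of all genes). Their median ratio was 0.955, against 0.871 for all tested genes. In GM01953 the summed ratio was 0.347 (0.0946 to 0.889), with 0 of 2 called, against 19.7% of all genes. EIF4B itself had 0 of 129 counts in the region in DoHH-2 and 0 of 11 in GM01953.

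Genes of termination and nonsense-mediated decay, the pathway that destroys mRNAs with early stop codons, were close to all genes in DoHH-2. There 6 of 26 were called (23.1%, against 21.3% of all genes), with a ratio of 1.08 (0.944 to 1.24). In GM01953 0 of 4 were called, against 19.7% of all genes. ETF1, which encodes eRF1, had 8 of 227 counts in DoHH-2 and 0 of 9 in GM01953. GSPT1, which encodes eRF3a, had 21 of 571 and 0 of 31, with a DoHH-2 ratio of 2.61 (1.60 to 4.03). UPF1, the helicase of nonsense-mediated decay, had 2 of 177 and 0 of 15. PABPC1, the poly(A)-binding protein, had 63 of 898 and 6 of 105, ratios of 2.02 (1.54 to 2.61) and 1.62 (0.582 to 3.66).

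The other lists had shares of called genes on both sides of the background. That background was 21.3% of all genes in DoHH-2 and 19.7% in GM01953. In DoHH-2 6 of 24 hnRNP genes (25%) and 3 of 18 heat shock and chaperone genes (16.7%) were called. So were 1 of 18 actin and tubulin genes (5.56%) and 3 of 16 glycolytic genes (18.75%). In GM01953 these were 1 of 20 (5%), 4 of 14 (28.6%), 1 of 14 (7.14%) and 5 of 11 (45.5%). HNRNPU, an RNA-binding nuclear matrix protein, had 139 of 2075 and 13 of 109 counts, with position -26 highest in both lines. LDHA, lactate dehydrogenase A, had 182 of 1632 and 20 of 94, and ALDOA, an aldolase, had 178 of 1310 and 21 of 155. B-cell surface and transcription factor genes had 3 of 14 (21.4%) and 3 of 10 (30%) called, against the same background. IRF4, a B-cell transcription factor, was called in both lines (ratios 3.81 and 8.13). Of survival genes linked to eIF4B in lymphoma, 1 of 9 (11.1%) and 0 of 4 were called. BCL2, an inhibitor of cell death, had 36 of 2050 and 1 of 70 counts. Selenoproteins, which recode UGA, had 2 of 13 called in DoHH-2 (15.4%) and no tested gene in GM01953. Among mRNAs with described readthrough, 2 of 6 (33.3%) and 0 of 4 were called.

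Other genes with high counts were placed differently around the codon. Of the 598 ACTB counts in DoHH-2, 512 were before the stop codon, as were 75 of its 77 in GM01953. HSP90AA1, a chaperone, had 501 and 31, mainly after it (338 and 24). MIF, a cytokine with a short mRNA, had 371 and 61 counts, but its region was less dense than the rest of its mRNA in both lines (0.689, 0.616 to 0.769, and 0.662, 0.497 to 0.869). JCHAIN, the joining chain of polymeric antibodies, had 331 of 3774 in DoHH-2, a ratio of 1.10 (0.983 to 1.24), and 7 of 82 in GM01953. ROMO1, a mitochondrial membrane protein, had 226 of 427 in DoHH-2 and 14 of 40 in GM01953. UBL5 had 289 of 471 and 31 of 39, and NAA38, a subunit of an N-terminal acetyltransferase, had 188 of 358 and 10 of 26. Among the 590 genes with at least 20 region counts in DoHH-2, the highest position was on the 3′ UTR side in 330, on the CDS side in 225 and at -1 or 0 in 30. In GM01953 these were 20, 12 and 3 of 35 genes. Of the 33 genes with at least 20 counts in both lines, 6 had the same highest position and 10 had it within 3 nt.

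Between the lines, 74 genes had a mean of at least 10 region counts per 100000 mRNA counts, a mean that a gene can also reach through 1 line. Of these, 25 (33.8%) were at least 2-fold higher in GM01953 and 5 (6.76%) at least 2-fold higher in DoHH-2, but the mean criterion sets a part of this split. Genes such as COTL1, MS4A1, ANP32A and SEPTIN9 were below 10 in DoHH-2 and passed it through GM01953 alone. SFPQ (4.62 in GM01953) and JCHAIN (8.08) passed it through DoHH-2 alone. The intervals of the fold values below do not allow for this selection, and no general shift between the lines is read from these counts. The values of 10 of the 25 genes differed at least 2-fold on the whole mRNA as well, and those of the other 15 did not. No RNA abundance was used here, so the amount of an mRNA and its binding by eIF4B cannot be told apart.

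ANP32A, the acidic nuclear phosphoprotein gene, had 58 of its 93 GM01953 mRNA counts in the region (62.4%, 52.2% to 71.5%) and 53 of 692 in DoHH-2 (7.66%, 5.90% to 9.88%). Per 100000 mRNA counts this was 67.0 in GM01953 and 4.89 in DoHH-2, 13.7 times higher in GM01953 (9.27 to 20.3). All 58 were after the stop codon, 25 of them at position 47, where DoHH-2 had 12. PFN1, which encodes the actin-binding protein profilin, had the highest region count in GM01953, 146 of 560 mRNA counts, with 334 of 1930 in DoHH-2, and was 5.47 times higher in GM01953 per 100000 (4.47 to 6.66), with 3.63 times on the whole mRNA. PTMA, which encodes prothymosin alpha, had 43 of 102 and 192 of 1293, and 29 of its 43 GM01953 counts were at position 27. SEPTIN9 had 28 of 94 counts in GM01953 and 33 of 1397 in DoHH-2, with 10.6 times the region value in GM01953. COTL1, an actin-binding protein gene, had 22 region counts in GM01953 and 0 in DoHH-2, 91.7 times a floor of 3 counts in the pooled DoHH-2 table and at least 68.5-fold higher in GM01953 by the exact interval. It had 0 DoHH-2 counts on its whole mRNA. MS4A1, which encodes the B-cell antigen CD20, had 21 and 3 counts, 87.6 times higher in GM01953 (26.1 to 458), and its whole mRNA was 149 times higher there (143 and 12 counts). SEPTIN9, COTL1, MS4A1 and SFPQ were chosen after their values were seen.

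In the other direction, SFPQ, a nuclear RNA-binding protein gene, had 227 counts in DoHH-2 and 4 in GM01953, 4.54 times higher in DoHH-2 per 100000 (1.75 to 16.8). JCHAIN was 3.78 times higher (1.81 to 9.48) and HMGB2 2.58 times (1.57 to 4.55). The whole JCHAIN mRNA was 3.68 times higher as well, whereas that of HMGB2 was 1.25 times higher. HMGB2 had 23.2% of its DoHH-2 mRNA counts in the region (21.5% to 24.97%) and 11.2% of its GM01953 counts (7.01% to 17.4%).

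**Figure D4:**
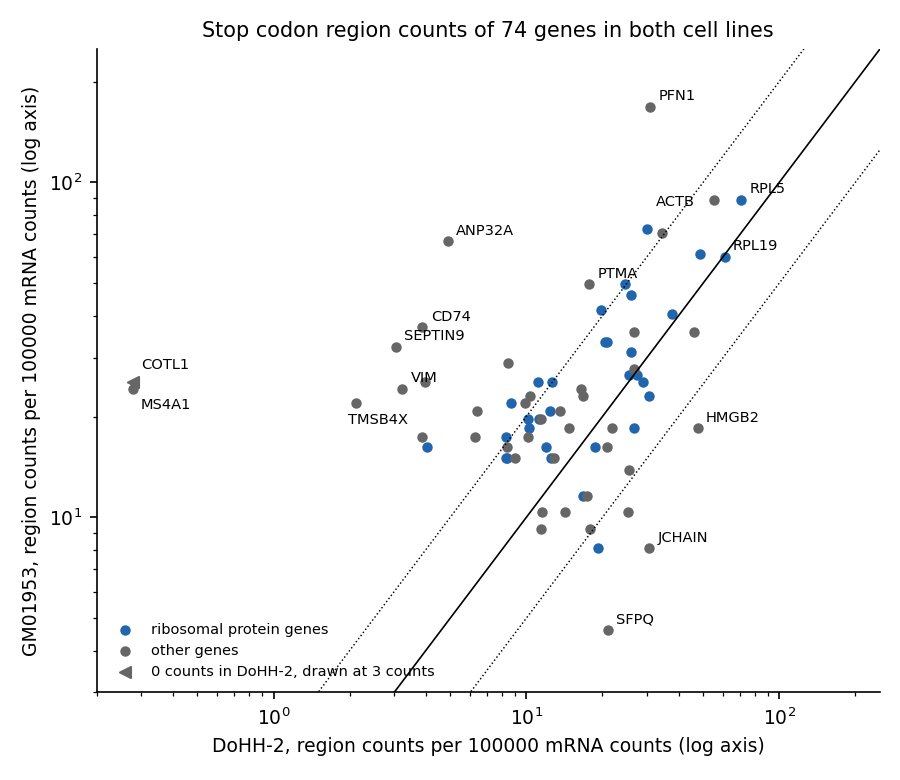
Stop codon region counts per 100000 mRNA counts of 74 genes in DoHH-2 (x, log axis) and GM01953 (y, log axis), each point a gene. The solid line marks equal values and the dotted lines 2-fold; 25 points lie at or above the upper dotted line, among them ANP32A (67.0 against 4.89) and PFN1, and 5 lie at or below the lower one, among them SFPQ and JCHAIN.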

How the data were processed

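eIF4B iCLIP was measured in DoHH-2 (4 labelled replicates) and GM01953 (2). The authors removed PCR duplicates, demultiplexed and trimmed the reads, aligned them with HISAT2 (GRCh38), merged the replicates and ran iCount. The cDNA counts per position were deposited by the authors without normalization. The FDR per position, a q-value from permutation of counts within the gene, was also deposited by the authors. Tool versions and their annotation release are not given in the sources used here.

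Positions were counted from 0 in the tables, so 1 was added: with this, position -1 was highest on both strands in DoHH-2, and without it the maximum fell at -2 on the plus strand and 0 on the minus strand. Each position was placed on GENCODE release 44 MANE Select transcripts. A position in the regions of several mRNAs was counted in each (25 extra in DoHH-2). The rest of an mRNA is all of it outside the region. Genes with more than 20 mRNA counts were called at a density ratio of 2. Depth was 2033156 counts in DoHH-2 and 167197 in GM01953. Intervals at 95% are Wilson (shares), exact Poisson (rates), exact conditional binomial (ratios) and Newcombe (difference), and do not hold replicate spread or leftover duplicates. The steps were tested on simulated data (Python 3.11.15, numpy 2.4.6, pandas 2.3.3, scipy 1.17.1, numba 0.67.0, matplotlib 3.10.9).

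Named genes are the 10 with the highest region count in each line, the 5 highest single positions in each line, the 5 (DoHH-2, at least 200 mRNA counts) and 3 (GM01953, at least 50) with the highest share in the region, and EIF4B, UPF1, ETF1, GSPT1 and PABPC1, with the 2 highest genes of a list as examples; 1 of these genes is not reported here. Regions, lists and rules were chosen with earlier results of these data known. The alternatives are positions in place of counts, FDR below 0.05, unique 31-nt words, the longest coding transcript, 25 nt to each side, removal of ribosomal protein genes or of the 10 highest genes, other gene thresholds and, added after seeing the data, no shift of positions.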

Additional observations from a re-analysis of the deposited data

Results flagged for a closer look

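The ratio of the stop codon region to the 100 nt of 3′ UTR after it lay on different sides of 1 in the 2 cell lines, at 0.836 in DoHH-2 and 1.06 in GM01953. The difference was not tested, since each line is 1 pooled table. The GM01953 value was 0.989 without its 10 highest genes and 0.964 without ribosomal protein genes.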

How the results depend on the processing

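No paired analysis was possible because no column belongs to a single replicate, and for the same reason no replicate could be left out in turn. The share of mRNA counts (5.54% in DoHH-2, 5.81% in GM01953) was 4.62% and 5.26% for positions in place of counts, 7.12% and 6.25% for FDR below 0.05, 5.22% and 5.21% without the 10 highest genes, 4.88% and 4.94% without ribosomal protein genes, 5.37% and 5.62% for unique words, 5.02% and 5.24% on the longest coding transcripts, and 2.96% and 3.28% for 25 nt to each side. The difference between the lines moved to -0.641 points for positions and -0.0636 without ribosomal protein genes, where its interval included 0 (-0.218 to 0.0874). It reversed to 0.876 for FDR below 0.05 and was lost without the 10 highest genes (0.00438, -0.154 to 0.159). The cause was not tested. The ratio to both flanks together (1.08 and 1.30) was 1.07 in DoHH-2 for positions, 1.03 without ribosomal protein genes, 1.03 on the longest transcripts and 1.07 for 25 nt, and in GM01953 it was 1.37 for FDR below 0.05, 1.21 without the 10 highest genes, 1.22 without ribosomal protein genes and 1.25 on the longest transcripts. The 3′ UTR side over the CDS side (1.34 and 1.36) was 1.23 in DoHH-2 for positions, 1.52 for FDR below 0.05, 1.30 without the 10 highest genes, 1.41 without ribosomal protein genes, 1.38 for unique words and 1.18 for 25 nt, and in GM01953 1.28 without the 10 highest genes and 1.19 for 25 nt. The ratio to the start codon region (0.577 and 0.443) was 0.621 and 0.389 for positions, 0.505 and 0.472 for FDR below 0.05, 0.545 and 0.403 without the 10 highest genes, 0.541 and 0.386 without ribosomal protein genes, 0.562 and 0.427 for unique words, 0.548 and 0.418 on the longest transcripts, and 0.499 in GM01953 for 25 nt. Called genes (1616 and 182) numbered 725 and 101 for FDR below 0.05, 518 and 99 at a ratio of 4, and in GM01953 72 for positions and 49 with more than 50 mRNA counts. A further 39 of the values stayed within their counting interval, or within 1.5 times for gene counts, among them every value without the shift of positions. In GM01953 55.0% of tested genes had 0 region counts, so genes there are resolved less well than in DoHH-2.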
